A study of Homo sapiens with 8 samples.

Results

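The genes of the proteasome were taken as all protein-coding genes whose GENCODE symbol starts with PSM, a letter from A to G and a digit, which gave 50 of the 69215 genes in the count files. The proteasome is the barrel-shaped protease that degrades ubiquitin-tagged proteins. Its core particle stacks rings of alpha and beta subunits, with the cutting sites on 3 of the beta subunits, PSMB5, PSMB6 and PSMB7. A regulatory particle caps the core: its base holds the ATPases that unfold substrates, and its lid holds the enzyme that removes ubiquitin before entry. Dedicated chaperones assemble the particles, and in cells exposed to interferon the immunosubunits PSMB8, PSMB9 and PSMB10 take the place of the standard cutting subunits.

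RNA of these genes was measured in G401 cells, an established kidney rhabdoid tumor line. These cells have lost SMARCB1, a subunit of the mSWI/SNF chromatin remodeling complexes. All samples carried a Tet-On system, which drives SMARCB1 in one engineered line and GFP in the control line once doxycycline (Dox) is added. Cells received Dox at 0.1 µg/ml or its vehicle dimethylsulfoxide (DMSO) for 12 h, giving 4 groups with 2 libraries each: SMARCB1 DMSO, SMARCB1 Dox, GFP DMSO and GFP Dox. Whether either engineered line is a single clone is not given in the sources used here, and per the study's methods each sample pooled several plates, so the spread between libraries is that between these pooled samples and may be technical.

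The 50 members comprised 7 alpha ring and 7 beta ring subunits, 3 immunosubunits, the tissue-restricted subunits PSMA8 and PSMB11, 9 base and 8 lid subunits, 7 assembly factors, 5 activators and inhibitors, and 2 genes that share the symbol pattern without being proteasome parts (PSMC3IP and PSME3IP1). An expression filter left 15931 genes for testing, 47 members among them, and PSMB8, PSMA8 and PSMB11 did not pass it. Mean counts of the 47 tested members ran from 58.5 to 10456.5 reads per library, and 37 exceeded 1000.

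The libraries held 29632090 to 37597477 reads assigned to genes, of which 18.9 to 27.9% were mitochondrially encoded. SMARCB1 DMSO replicate 1 had the most. SMARCB1 had 10 and 21 reads in the uninduced SMARCB1 libraries, 30474 and 29383 in the induced ones and none in the 4 GFP libraries, so the labels and the induced gene matched. Because leukocytes carry immunosubunits, 6 leukocyte markers were summed: they reached 142 to 201 reads per SMARCB1 library and 238 to 319 per GFP library. The tested markers CD68, CORO1A and LAPTM5 gave most of those reads, and the defining T cell marker CD3E had none in the 8 libraries.

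The measure for a gene across libraries is CPM, the read count per gene divided by the TMM-scaled library size. It is a share of each library, so fewer RNA molecules per cell and a smaller share cannot be told apart. Summed over the 48 proteasome parts, the level was 3570 ± 92.1 CPM (SD, n = 2) in SMARCB1 DMSO, 3501 ± 33.5 in SMARCB1 Dox, 3894 ± 30.9 in GFP DMSO and 3994 ± 122 in GFP Dox. Both SMARCB1 groups lay below both GFP groups, without overlap between libraries, and within each line the Dox and DMSO libraries overlapped. That layout did not hold for every gene: of the 47 tested members, 15 were on the higher side in the SMARCB1 line under DMSO and 13 under Dox, as the heat map shows.

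**Figure D1:**
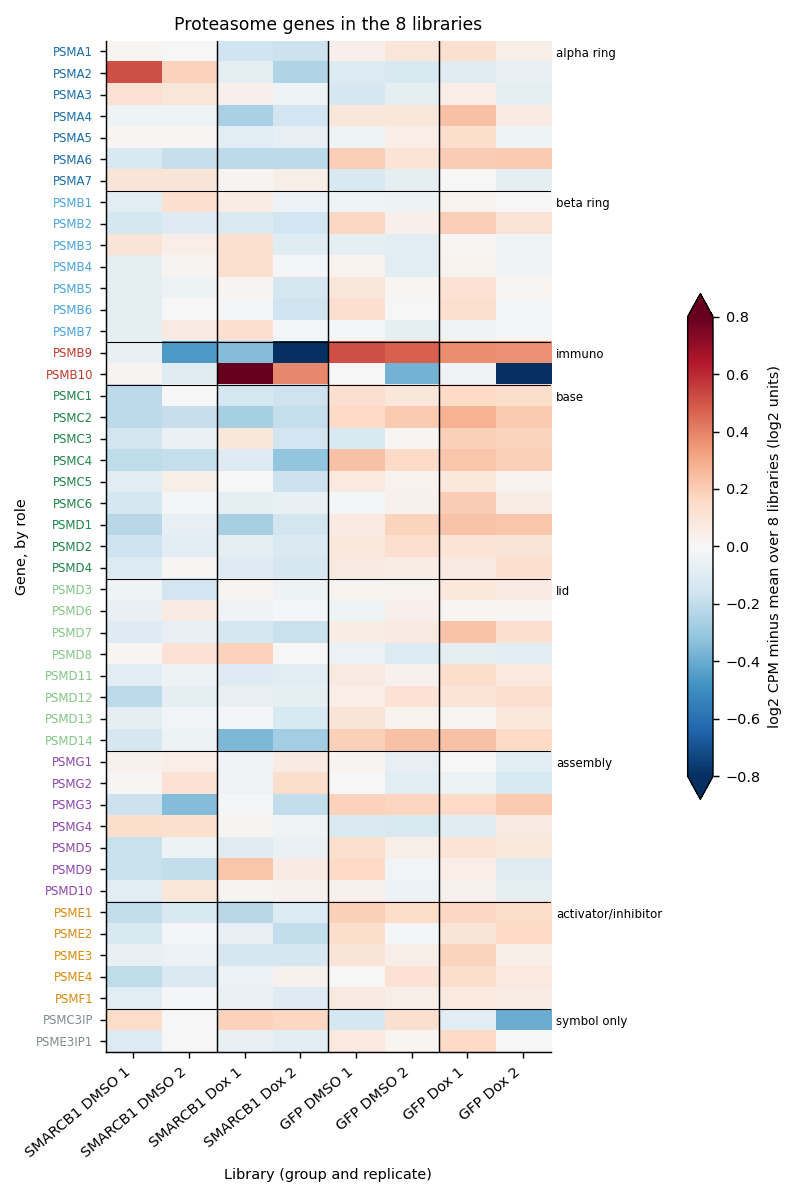
Level of each of the 47 tested proteasome genes (rows, ordered by role) in the 8 libraries (columns), as log2 CPM minus the gene's mean over the libraries. Colours run from 0.8 log2 units below the mean (blue) to 0.8 above (red). Most base, lid and activator rows are pale blue in the SMARCB1 libraries and pale red in the GFP libraries, and PSMB9 and PSMB10 vary most.

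Induction of SMARCB1 for 12 h changed 1 of the 47 tested members (2.13%) at an adjusted p below 0.05 in edgeR's quasi-likelihood test, against 14.0% of all genes tested. That member, PSMA2, an alpha ring subunit, was lower. Log2 fold changes of the members ran from -0.51 (PSMA2) to 0.73 (PSMB10), with a median of -0.03 against -0.004 over all genes, and 35 members lay within 0.1 log2 units of 0. The 95% interval of the fold change stayed inside 1.5-fold in either direction for 43 members (91.5%), and for 55.4% of all genes tested. The 4 members whose interval reached further were PSMA2, PSMB9, PSMB10 and PSMD9. Across the 47 members the fold change rose with the GC content of the exons (Spearman's rho = 0.31), as over all genes (0.25), although genes share the libraries and are not independent replicates.

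PSMA2 (chr7:42916828-42932185, GRCh38, minus strand) had 256 and 230 reads (DMSO) and 208 and 182 (Dox) in the SMARCB1 line, against 192 and 217 (DMSO) and 177 and 216 (Dox) in the GFP line. Scaled to library size these were 8.78 and 6.98 CPM (DMSO) and 5.84 and 5.21 (Dox) in the SMARCB1 line, against 5.69 and 5.65 (DMSO) and 5.75 and 5.9 (Dox) in the GFP line, so the SMARCB1 DMSO libraries stood above the other 6, which lay close together. The log2 fold change was -0.51 ± 0.16 (SE, adjusted p = 0.0342). Leaving out SMARCB1 DMSO replicate 1 changed it to -0.34 with an adjusted p of 0.317, leaving out SMARCB1 Dox replicate 2 to -0.43 with 0.165, and leaving out SMARCB1 Dox replicate 1 to -0.59 with 0.0696. DESeq2 gave an adjusted p of 0.0832 for the same difference. The 1434 bases of its main (MANE Select) transcript lie wholly inside exons of a readthrough gene on the same strand in GENCODE v44, and HTSeq leaves out reads that fall on 2 genes. By this annotation its counts come from other annotated exons, and how many reads were left out was not measured. Part of the main transcript is shared in the same way for PSMA6 (81.4%), PSMA1 (67.0%), PSMB10 (56.1%) and PSMD9 (28.8%).

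Among members that did not pass the threshold, 5 had an unadjusted p below 0.05. PSMD14, the lid enzyme that cuts ubiquitin chains from substrates, had 55.5 and 59.2 CPM (DMSO) and 47.5 and 50.2 (Dox) in the SMARCB1 line, against 69.5 and 71.7 (DMSO) and 71.6 and 67.9 (Dox) in the GFP line. Both SMARCB1 Dox libraries were below both SMARCB1 DMSO libraries, with a log2 fold change of -0.23 ± 0.082 (SE, adjusted p = 0.0645). PSMD9, a chaperone of base assembly, had 12.1 and 12 CPM (DMSO) and 16 and 14.4 (Dox) in the SMARCB1 line, against 15.3 and 13.5 (DMSO) and 14.2 and 12.8 (Dox) in the GFP line. Here the SMARCB1 Dox libraries were above those of SMARCB1 DMSO, with a log2 fold change of 0.33 ± 0.12 (SE, adjusted p = 0.0756). The alpha ring subunits PSMA1 and PSMA4 stood at -0.17 and -0.17 (adjusted p = 0.154 and 0.19), and PSMB10 is described with the immunosubunits.

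By role, the 7 alpha ring subunits all had negative log2 fold changes with SMARCB1 induction, from -0.51 to -0.06, and 1 of them passed the test. Their summed level was 591 ± 3.74 CPM in SMARCB1 DMSO and 536 ± 8.87 in SMARCB1 Dox (SD, n = 2), without overlap, and the sum was not tested. The beta ring subunits ran from -0.05 to 0.09, the base from -0.07 to 0.07, the lid from -0.23 to 0.09, the assembly factors from -0.14 to 0.33 and the activators and inhibitors from -0.08 to 0.15, and none of these passed the test.

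In the GFP line, Dox changed none of the 47 members, as it changed 0.0% of all genes tested by edgeR (DESeq2 also called no member). An unadjusted p below 0.05 was reached by 1 member, the base ATPase PSMC3, at 0.24 ± 0.11 (SE, adjusted p = 1). The median was 0.04 (all genes 0.004), and for 45 members the 95% interval stayed inside 1.5-fold. The difference between the Dox effects in both lines, a direct test of what SMARCB1 adds to Dox, was called for none of the members by edgeR or DESeq2, against 4.71% of all genes in edgeR. The members PSMD9 (0.43 ± 0.17), PSMB10 (0.95 ± 0.44) and PSMA2 (-0.55 ± 0.22) had an unadjusted p below 0.05 there, and the smallest adjusted p was 0.196 (PSMD9).

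**Figure D2:**
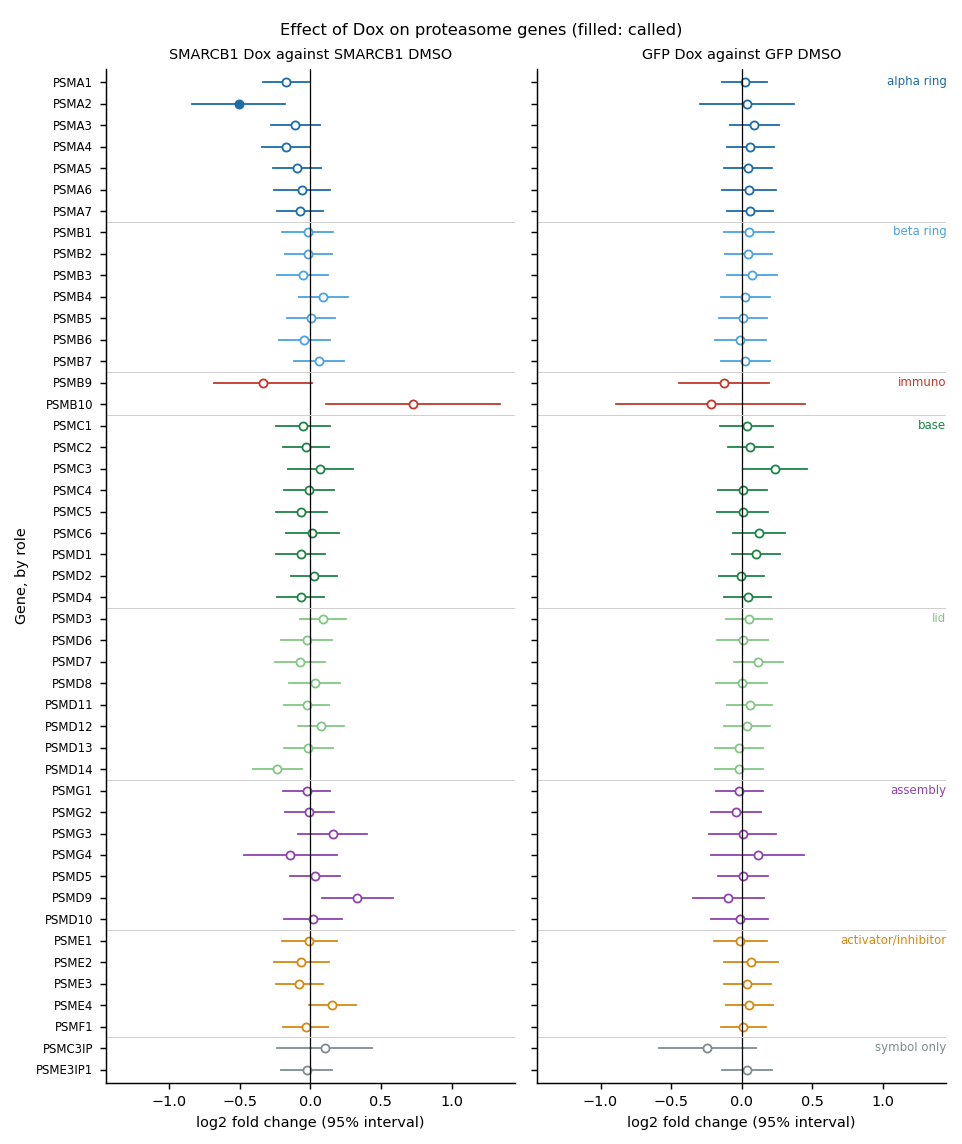
Log2 fold change with Dox for each tested proteasome gene, by role, in the SMARCB1 line (left) and the GFP line (right), with bars for the 95% interval and filled points for adjusted p below 0.05. The only filled point is PSMA2 on the left, at -0.51, and most points lie within 0.1 of 0 in both panels.

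The lines differed more than the treatments did. Under DMSO, with SMARCB1 not induced, 13 of 47 members (27.7%) differed between the SMARCB1 and the GFP line, against 32.0% of all genes tested. Most of them lay in a single direction: 12 members (25.5%) were lower in the SMARCB1 line, against 15.7% of all genes, and 1 (PSMA2) was higher, against 16.3%. Under Dox, 19 members (40.4%) differed, against 38.8% of all genes, of which 17 (36.2%) were lower, against 19.2%, and 2 (PSMB10 and PSMC3IP) were higher, against 19.6%. Median log2 differences were -0.11 under DMSO and -0.15 under Dox, where all genes had a median of 0.01 in each. The comparisons share no library, and 9 members were lower in both (PSMA6, PSMB2, PSMB9, PSMC2, PSMC4, PSMD1, PSMD2, PSMD14 and PSME1), 75.0% of the DMSO list and 52.9% of the Dox list. Over all genes the corresponding shares were 72.7% and 59.5%. The change of the line difference from DMSO to Dox is the same contrast as the difference of the Dox effects, in which no member passed the test.

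With 2 libraries a group, single libraries weighed on these counts. The number of members lower under DMSO was 12, and fell to 5 without SMARCB1 DMSO replicate 1, to 6 without GFP DMSO replicate 1 and to 7 without GFP DMSO replicate 2. Under Dox, leaving out GFP Dox replicate 1 took the count from 17 to 8. PSMB9, PSMC2 and PSMC4 were called lower in both comparisons whichever library was left out.

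**Figure D3:**
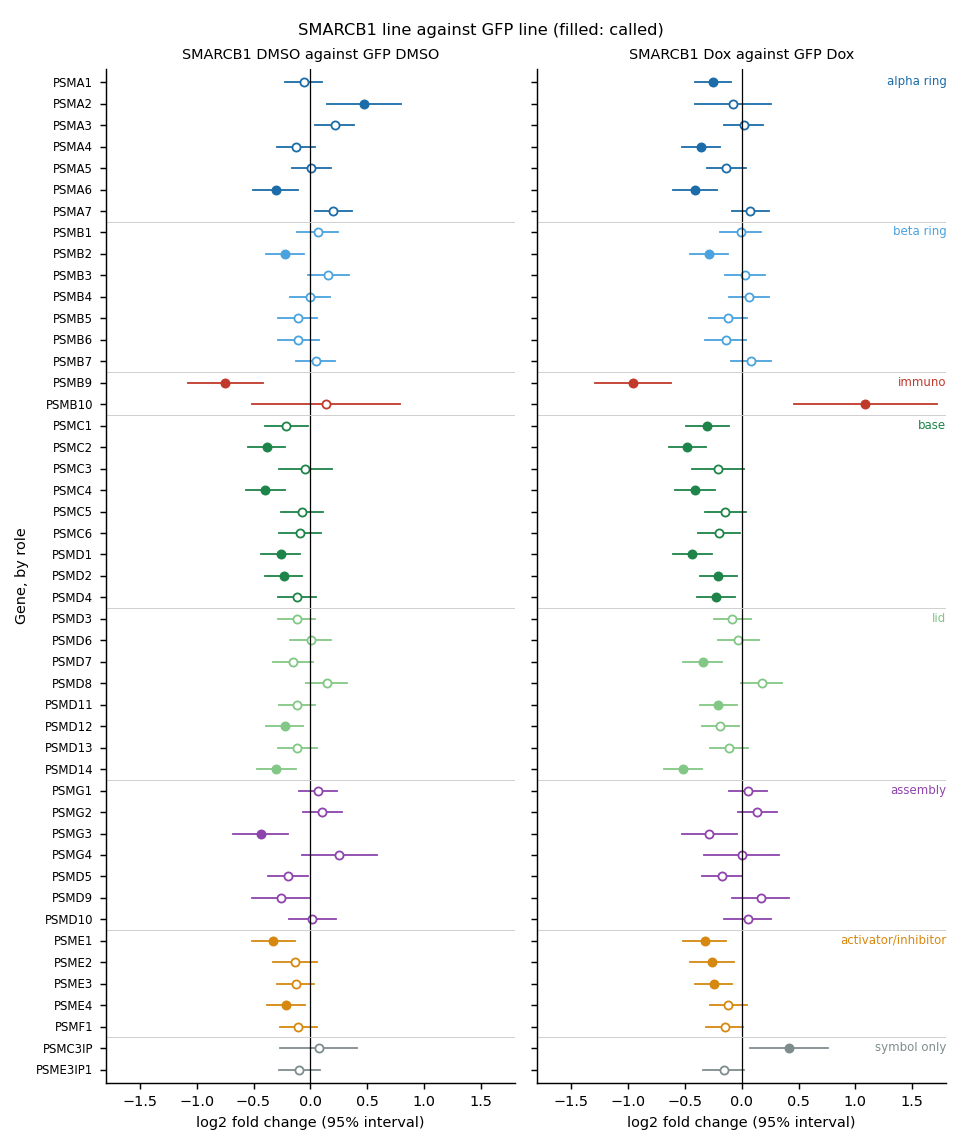
Log2 difference of the SMARCB1 line from the GFP line for each tested proteasome gene, by role, under DMSO (left) and under Dox (right), with bars for the 95% interval and filled points for adjusted p below 0.05. Base subunits lie left of 0 in both panels, most beta ring and assembly genes straddle it, and PSMB9 stands furthest left, at -0.75 and -0.95.

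The base of the regulatory particle held the most members that differed: 4 of 9 were lower under DMSO and 6 of 9 under Dox. Over all genes tested, 15.7% were lower under DMSO and 19.2% under Dox. All 9 base members had negative differences in both comparisons. The summed level of the base was 721 ± 33.7 CPM in SMARCB1 DMSO and 712 ± 7.69 in SMARCB1 Dox, against 854 ± 13.9 in GFP DMSO and 882 ± 10.1 in GFP Dox (SD, n = 2). The ATPase PSMC4 had 70.2 and 70.8 CPM (DMSO) and 75.3 and 64.9 (Dox) in the SMARCB1 line, against 95.2 and 90.2 (DMSO) and 94.3 and 92.1 (Dox) in the GFP line, with no overlap between the lines. Its log2 difference was -0.40 ± 0.084 (SE, adjusted p = 0.000858) under DMSO and -0.41 ± 0.084 (SE, adjusted p = 0.000464) under Dox.

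PSMC2, another of the ATPases, had 129 and 134 CPM (DMSO) and 140.4 and 134 (Dox) in the GFP line, against 99.8 and 102 (DMSO) and 95.9 and 101 (Dox) in the SMARCB1 line. The lines again did not overlap, and the log2 difference was -0.38 ± 0.078 (SE, adjusted p = 0.000514) under DMSO and -0.48 ± 0.078 (SE, adjusted p = 3.66e-05) under Dox. PSMD1, the large scaffold subunit of the base, had 121 and 135 CPM (DMSO) and 117 and 127 (Dox) in the SMARCB1 line, against 147 and 159 (DMSO) and 165 and 164 (Dox) in the GFP line, which gave -0.26 ± 0.083 and -0.43 ± 0.083. Its partner scaffold PSMD2 had 208 and 221 CPM (DMSO) and 221 and 216 (Dox) in the SMARCB1 line, against 248 and 257 (DMSO) and 252 and 251 (Dox) in the GFP line, a smaller gap of -0.24 ± 0.077 and -0.21 ± 0.077. The ubiquitin receptor PSMD4 had 66.8 and 72.4 CPM (DMSO) and 67.2 and 65.6 (Dox) in the SMARCB1 line, against 75.8 and 75 (DMSO) and 75.9 and 79.3 (Dox) in the GFP line and passed the test under Dox at -0.23 ± 0.080 (SE, adjusted p = 0.029), but not under DMSO (adjusted p = 0.299). PSMC1 did likewise (-0.21 under DMSO, -0.30 under Dox), and 76.1% of its annotated exon bases overlap NRDE2 on the opposite strand. The strand option of the counting was not stated, so reads of both genes may be mixed there.

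In the lid, 2 of 8 members were lower under DMSO and 3 under Dox, against 15.7% and 19.2% of all genes. PSMD14, whose levels are given with the Dox effect, was the furthest apart under Dox, at -0.51 ± 0.082 (SE, adjusted p = 2.8e-05), and stood at -0.30 ± 0.081 (SE, adjusted p = 0.00667) under DMSO. The scaffold subunit PSMD12 had 81.8 and 89.4 CPM (DMSO) and 90.7 and 89.8 (Dox) in the SMARCB1 line, against 97.9 and 102 (DMSO) and 102 and 104 (Dox) in the GFP line, and was lower under DMSO at -0.23 ± 0.079 (SE, adjusted p = 0.0328) while missing the threshold under Dox (adjusted p = 0.0636). PSMD11, a scaffold subunit of the same fold, showed the reverse, with 269 and 262 CPM (DMSO) and 282 and 270.2 (Dox) in the GFP line, against 239.9 and 248 (DMSO) and 239 and 241 (Dox) in the SMARCB1 line. Its adjusted p was 0.252 under DMSO and 0.039 under Dox, where the difference was -0.20 ± 0.077. PSMD7, the partner of PSMD14, was the other lid subunit lower under Dox (-0.34 ± 0.083 (SE, adjusted p = 0.00227)).

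Each core ring had fewer members called between the lines than the base, but the alpha ring had about as many as the lid. In the alpha ring 1 of 7 was lower and 1 higher under DMSO, and 3 were lower under Dox. In the beta ring 1 of 7 was lower in each comparison. Over all genes tested, 15.7% were lower and 16.3% higher under DMSO, and 19.2% were lower under Dox. In the alpha ring PSMA6 had 23.7 and 22.7 CPM (DMSO) and 22.3 and 22.3 (Dox) in the SMARCB1 line, against 29.5 and 27.8 (DMSO) and 29.6 and 29.7 (Dox) in the GFP line, without overlap between the lines and with differences of -0.31 ± 0.094 and -0.41 ± 0.094. PSMA1 and PSMA4 were lower under Dox (-0.25 and -0.36) and not called under DMSO, and PSMA2 was higher under DMSO at 0.47 ± 0.16 (SE, adjusted p = 0.0253). That PSMA2 call was lost without either GFP DMSO library and without SMARCB1 DMSO replicate 1 (adjusted p from 0.0954 to 0.267). In the beta ring PSMB2 alone differed: its libraries held 278 and 285 CPM (DMSO) and 282 and 275 (Dox) in the SMARCB1 line, against 343 and 315 (DMSO) and 351 and 329 (Dox) in the GFP line, and the differences were -0.23 ± 0.080 (SE, adjusted p = 0.0343) and -0.29 ± 0.080 (SE, adjusted p = 0.0062). The 3 standard cutting subunits PSMB5, PSMB6 and PSMB7 passed the test in none of the comparisons, with log2 differences between -0.14 and 0.08 across the lines. With the GC trend removed, together with a replicate block, PSMB5 and PSMB6 were called lower in the SMARCB1 line under Dox.

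Among the immunosubunits, PSMB8 was practically silent, PSMB9 was low and lower in the SMARCB1 line, and PSMB10 had fewer reads than PSMB9. PSMB8 (chr6:32840717-32844679, GRCh38) had 0 and 1 reads (DMSO) and 1 and 0 (Dox) in the SMARCB1 line, against 2 and 0 (DMSO) and 1 and 2 (Dox) in the GFP line. None of these reaches 3 reads, which in these libraries is 0.0782 to 0.103 CPM, so no fold was computed. PSMB9, which lies beside it at chr6:32844136-32859851, had 257 and 221 reads (DMSO) and 257 and 176 (Dox) in the SMARCB1 line, against 445 and 491 (DMSO) and 367 and 434 (Dox) in the GFP line, or 8.82 and 6.7 CPM (DMSO) and 7.22 and 5.04 (Dox) in the SMARCB1 line, against 13.2 and 12.8 (DMSO) and 11.9 and 11.9 (Dox) in the GFP line. Every SMARCB1 library was below every GFP library: SMARCB1 DMSO reached 59.6% of GFP DMSO, a log2 difference of -0.75 ± 0.16 (SE, adjusted p = 0.000884), and SMARCB1 Dox reached 51.6% of GFP Dox, -0.95 ± 0.16 (SE, adjusted p = 6.17e-05). The Dox effect on PSMB9 in the SMARCB1 line was -0.34 ± 0.17 (SE, adjusted p = 0.215) with overlapping libraries, although it passed the threshold without SMARCB1 Dox replicate 1 (-0.62, adjusted p = 0.0489). The 6 summed leukocyte markers were also lower in the SMARCB1 line, at 4.32 to 5.65 CPM per library against 7.03 to 8.97 in the GFP line, while PTPRC had 0 to 2 reads per library and CD3E none. The markers did not move together: under DMSO CORO1A was lower in the SMARCB1 line at -1.44 ± 0.25 (SE, adjusted p = 0.000114) and CD68 stood at -0.06 ± 0.24 (SE, adjusted p = 0.889). With SMARCB1 induction CORO1A was higher (0.83) and CD68 lower (-0.90), both called. Their part in the PSMB9 difference was not tested.

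PSMB10 (chr16:67934506-67936864) had 48 and 50 reads (DMSO) and 111 and 74 (Dox) in the SMARCB1 line, against 55 and 48 (DMSO) and 49 and 33 (Dox) in the GFP line. In CPM these were 1.65 and 1.52 CPM (DMSO) and 3.12 and 2.12 (Dox) in the SMARCB1 line, against 1.63 and 1.25 (DMSO) and 1.59 and 0.902 (Dox) in the GFP line, with SMARCB1 Dox replicate 1 the highest and GFP Dox replicate 2 the lowest. The Dox effect in the SMARCB1 line was 0.73 ± 0.30 (SE, adjusted p = 0.113), with a 95% interval from 0.11 to 1.34, and the test of the difference from the GFP line gave 0.95 ± 0.44 (SE, adjusted p = 0.282). Under Dox the lines differed by 1.09 ± 0.30 (SE, adjusted p = 0.00657). This call was lost without SMARCB1 Dox replicate 1 (0.78, adjusted p = 0.124) and without GFP Dox replicate 2 (0.72, adjusted p = 0.129). A readthrough gene that shares exons with PSMB10 had 41 to 68 reads per library, about as many as PSMB10 itself.

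Set against the standard subunit that each replaces, and per length of the annotated exons (RPKM), PSMB9 stood at 5.13% (DMSO) and 4.13% (Dox) of PSMB6 in the SMARCB1 line, against 7.95% (DMSO) and 7.34% (Dox) in the GFP line. Single libraries ran from 3.60 to 5.98% in the SMARCB1 line and from 7.01 to 8.20% in the GFP line. Taken per length of the MANE Select transcript these were 9.59%, 7.72%, 14.9% and 13.7%. PSMB10 stood at 2.61 ± 0.33%, 4.08 ± 0.82%, 2.43 ± 0.38% and 2.08 ± 0.83% of PSMB7 in the same order, where only the SMARCB1 Dox libraries exceeded all others.

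**Figure D4:**
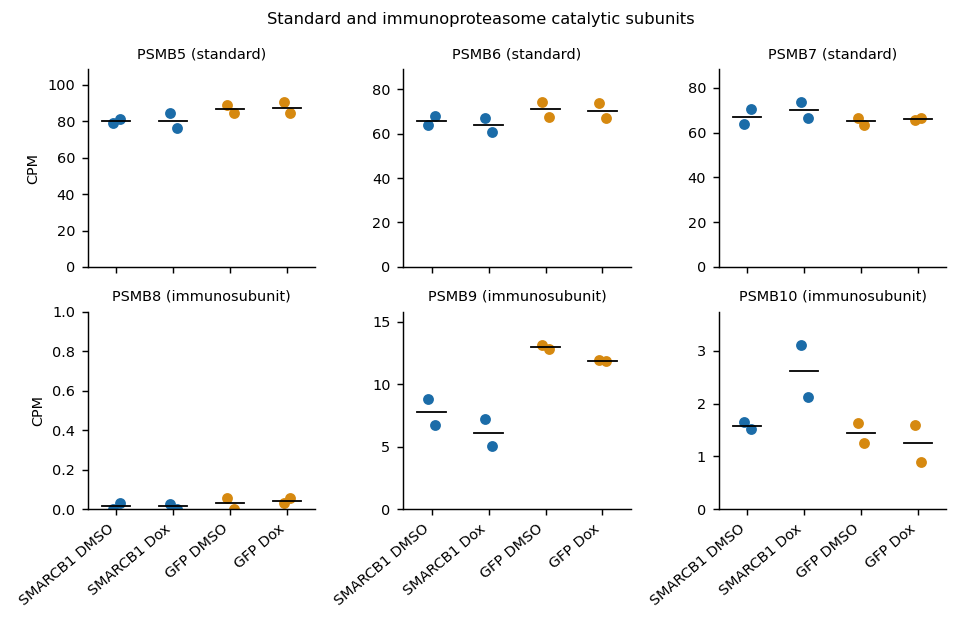
CPM of the standard cutting subunits PSMB5, PSMB6 and PSMB7 (top) and of the immunosubunits PSMB8, PSMB9 and PSMB10 (bottom) in the 4 groups; points are libraries, lines are group means, and each panel has its own axis from 0. The standard subunits lie at similar levels in all groups, PSMB8 is near 0, PSMB9 is higher in both GFP groups, and PSMB10 is highest in SMARCB1 Dox.

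Promoter sequences are shown for the immunosubunits, among which PSMB9 had the largest difference between the lines under DMSO of the tested members. They are also shown for PSMC4 and PSMD1, base members lower in both line comparisons. PSMC2 and PSMD2, the other base members lower in both, are not shown, and their matches are given below. Each window runs from 250 bases before to 50 after a RefSeq start site in GRCh38.p14, read 5′ to 3′ on the gene's strand. Capitals mark matches on either strand to TGACNNNGC, the core letters bound by NFE2L1 or NFE2L2 with a small MAF partner, or to TTCNNNGAA, the letters bound by STAT factors.
PSMB8, chr6:32843998-32844297, minus strand: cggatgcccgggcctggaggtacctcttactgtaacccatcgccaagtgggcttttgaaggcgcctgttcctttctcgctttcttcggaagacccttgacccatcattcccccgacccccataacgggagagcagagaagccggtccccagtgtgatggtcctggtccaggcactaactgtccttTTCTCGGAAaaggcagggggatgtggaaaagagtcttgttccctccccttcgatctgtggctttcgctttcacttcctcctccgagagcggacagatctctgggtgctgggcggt
PSMB9, chr6:32853942-32854241, plus strand: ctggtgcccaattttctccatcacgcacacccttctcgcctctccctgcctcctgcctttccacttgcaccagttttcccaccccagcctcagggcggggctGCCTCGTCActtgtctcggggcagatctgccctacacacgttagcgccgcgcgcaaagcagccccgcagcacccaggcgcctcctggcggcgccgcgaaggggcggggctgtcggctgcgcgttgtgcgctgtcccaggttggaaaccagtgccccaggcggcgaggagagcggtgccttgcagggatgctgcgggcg
PSMB10, chr16:67936801-67937100, minus strand: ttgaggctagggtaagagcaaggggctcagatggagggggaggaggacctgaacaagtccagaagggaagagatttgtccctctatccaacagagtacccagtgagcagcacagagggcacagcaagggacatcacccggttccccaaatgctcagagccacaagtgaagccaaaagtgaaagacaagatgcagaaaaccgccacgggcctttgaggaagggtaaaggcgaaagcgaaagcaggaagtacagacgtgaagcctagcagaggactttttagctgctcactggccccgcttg
PSMC4, chr19:39970915-39971214, plus strand: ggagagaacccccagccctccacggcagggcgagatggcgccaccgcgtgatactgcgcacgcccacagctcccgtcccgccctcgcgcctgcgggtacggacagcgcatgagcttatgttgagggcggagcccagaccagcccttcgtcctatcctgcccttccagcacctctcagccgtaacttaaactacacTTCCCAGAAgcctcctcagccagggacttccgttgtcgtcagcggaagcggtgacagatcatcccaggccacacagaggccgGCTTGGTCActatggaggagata
PSMD1, chr2:231056617-231056916, plus strand: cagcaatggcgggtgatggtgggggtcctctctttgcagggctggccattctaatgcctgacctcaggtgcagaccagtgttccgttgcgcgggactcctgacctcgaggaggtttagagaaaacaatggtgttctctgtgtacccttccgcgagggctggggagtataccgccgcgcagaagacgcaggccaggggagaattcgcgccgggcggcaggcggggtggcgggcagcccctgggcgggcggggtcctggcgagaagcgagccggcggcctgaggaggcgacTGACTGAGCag
The PSMB8 window shown holds a TTCNNNGAA match starting at base 186, while a second PSMB8 window, at chr6:32844630-32844929, holds neither that motif nor TGACNNNGC. The PSMB9 window holds a TGACNNNGC match at base 103. The PSMC4 window holds both motifs, at bases 278 and 196, and the PSMD1 window holds TGACNNNGC at base 290. By contrast, the PSMC2 window, not shown, holds neither motif. The PSMD2 windows, not shown, hold no TGACNNNGC, and that at chr3:184300331-184300630 holds TTCNNNGAA at base 286. Neither set of letters occurs in the PSMB10 window.

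Windows were found for 44 of the 50 members, 55 windows in all because some genes have several start sites. TGACNNNGC occurred in 15 windows (27.3%) against 13.3% of 35116 windows of the same length over all genes. TTCNNNGAA occurred in 8 windows (14.5%) against 7.66%, and CCAAT, the letters bound by NF-Y, in 24 (43.6%) against 34.6%. Each motif was searched on both strands and counted whether or not it overlapped another. Of the tested members with TGACNNNGC, 6 of 15 were lower in the SMARCB1 line under DMSO and 6 of 15 under Dox, and of those with windows but without it, 5 of 26 and 10 of 26. A match describes the letters in the window and not a site in use.

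The assembly factors changed little. None was called with Dox in either line or between the lines under Dox, and PSMG3 alone differed under DMSO. PSMG3, a chaperone of the alpha ring, had 14 and 12.3 CPM (DMSO) and 15.6 and 13.7 (Dox) in the SMARCB1 line, against 17.8 and 17.7 (DMSO) and 17.5 and 18.1 (Dox) in the GFP line, below the GFP line in every SMARCB1 library, with -0.43 ± 0.12 (SE, adjusted p = 0.00601) under DMSO and -0.28 ± 0.11 (SE, adjusted p = 0.0557) under Dox. Without SMARCB1 DMSO replicate 2 the call under DMSO was lost (-0.35, adjusted p = 0.072). Its partners PSMG1, PSMG2 and PSMG4 stood at 0.07, 0.10 and 0.26 under DMSO, none called. Summed, the 7 assembly factors held 291 ± 10.9, 295 ± 11.1, 292 ± 12.0 and 288 ± 9.37 CPM in SMARCB1 DMSO, SMARCB1 Dox, GFP DMSO and GFP Dox, and these overlapped.

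Of the activators, PSME1, which with PSME2 forms an interferon-inducible cap on the core, had 26.3 and 27.7 CPM (DMSO) and 25.8 and 27.9 (Dox) in the SMARCB1 line, against 34.4 and 33.3 (DMSO) and 33.9 and 33.4 (Dox) in the GFP line. It was lower in the SMARCB1 line at -0.33 ± 0.092 (SE, adjusted p = 0.00843) under DMSO and -0.32 ± 0.091 (SE, adjusted p = 0.00706) under Dox. Without SMARCB1 DMSO replicate 1 or GFP DMSO replicate 1 the DMSO call was lost (adjusted p = 0.063 and 0.0682), and without SMARCB1 Dox replicate 1 the Dox call was lost. PSME2 and PSME3, which forms a nuclear cap, were lower under Dox (-0.26 and -0.25). PSME4, a large single-chain activator, had 129.9 and 138 CPM (DMSO) and 145 and 153 (Dox) in the SMARCB1 line, against 149 and 162 (DMSO) and 165 and 158 (Dox) in the GFP line, and differed under DMSO (-0.22 ± 0.080 (SE, adjusted p = 0.0426)) and not under Dox (adjusted p = 0.268). The inhibitor PSMF1 passed the test in no comparison, but was called lower in both line comparisons with the GC trend removed and a replicate block. Of the genes that share only the symbol pattern, PSMC3IP, a partner of meiotic recombination proteins, had 6.55 and 5.91 CPM (DMSO) and 6.71 and 6.64 (Dox) in the SMARCB1 line, against 5.36 and 6.46 (DMSO) and 5.55 and 4.48 (Dox) in the GFP line and was called higher under Dox (0.42 ± 0.16 (SE, adjusted p = 0.0497)), a call lost without any 1 of the Dox libraries other than GFP Dox replicate 1. The tissue-restricted PSMA8, of germ cells, had no read, and PSMB11, of the thymus, had 1 read in GFP Dox replicate 1.

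Levels of different subunits were compared per kilobase of annotated exon. The 14 standard core subunits had a median of 35.6 RPKM, the mean over the 4 groups for each gene, from PSMA2 at 0.743 to PSMB2 at 67.8. Taken per kilobase of the MANE Select transcript, a length chosen after seeing the data, the range was 4.34 (PSMA2) to 99.6 (PSMA1), with a coefficient of variation of 44.3%. Without PSMA1, PSMA2 and PSMA6, which share exons with readthrough genes, the remaining 11 ran from 19.7 (PSMA5) to 84.4 (PSMB3), with a coefficient of variation of 27.6%. The 17 base and lid subunits, none left out, ran on that scale from 8.22 (PSMC1) to 80.4 (PSMD2), with a coefficient of variation of 48.9%. Neighbours in the order changed place with the choice of length, so it is given as a description.

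**Figure D5:**
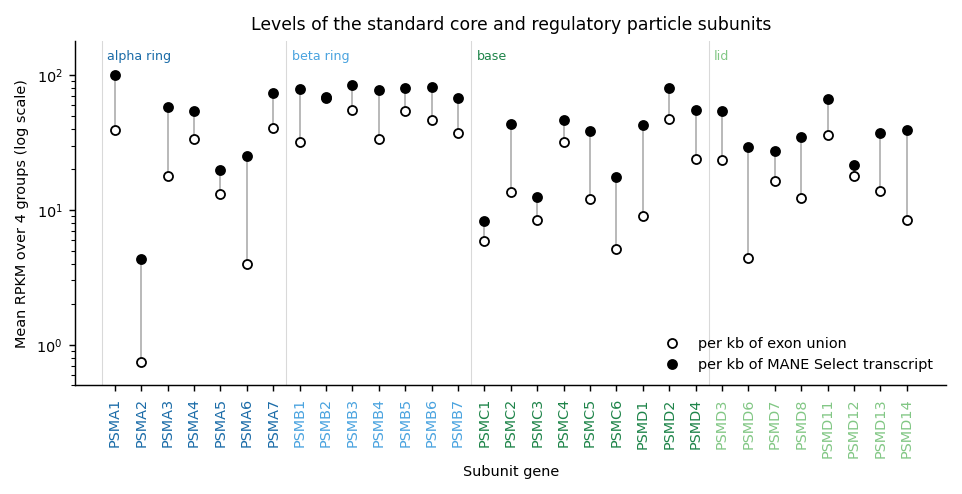
Mean level over the 4 groups of the standard core and regulatory particle subunits, in RPKM on a log axis, per kilobase of all annotated exons (open) or of the MANE Select transcript (filled), with a line joining both values of a gene. PSMA2 lies far below the rest on either length, at 0.743 and 4.34.

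Genes around the proteasome were taken from 4 further lists. Over all genes tested, 14.0% were called with SMARCB1 induction. Between the lines, 16.3% were higher and 15.7% lower in the SMARCB1 line under DMSO, and 19.6% and 19.2% under Dox. Of 12 proteasome genes with other symbols, 1 passed the test with SMARCB1 induction: AKIRIN2, which brings proteasomes into the nucleus, had 49.1 and 47 CPM (DMSO) and 59.8 and 56 (Dox) in the SMARCB1 line, against 51.5 and 48.8 (DMSO) and 50.1 and 50.3 (Dox) in the GFP line and rose by 0.27 ± 0.083 (SE, adjusted p = 0.0323). That call was lost without SMARCB1 Dox replicate 1 and without either SMARCB1 DMSO library (adjusted p from 0.0705 to 0.202). Between the lines under DMSO, 2 of 12 were higher, the core assembly factor POMP at 0.34 ± 0.10 and PITHD1 at 0.30 ± 0.092. The other 2 called were lower, the proteasomal deubiquitinase USP14 at -0.30 ± 0.083 and TXNL1 at -0.23 ± 0.084. Under Dox, 1 (POMP) was higher and 3 were lower (TXNL1, USP14 and ECPAS, at -0.44, -0.39 and -0.31).

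NFE2L1 is the factor that raises proteasome gene transcription when proteasomes are impaired, after VCP with its cofactor NPLOC4 has extracted it from the membrane and DDI2 has cut it. All 10 genes of this list were tested. Under DMSO 2 were higher in the SMARCB1 line and 4 lower, against 16.3% and 15.7% of all genes. Under Dox 2 were higher and 3 lower, against 19.6% and 19.2%. NFE2L1 itself had 215 and 192 CPM (DMSO) and 184 and 181 (Dox) in the SMARCB1 line, against 109 and 113 (DMSO) and 109.8 and 118 (Dox) in the GFP line, above the GFP line in every library, with 0.87 ± 0.082 (SE, adjusted p = 1.96e-08) under DMSO and 0.68 ± 0.082 (SE, adjusted p = 6.4e-07) under Dox. Its partners went both ways: MAFK had 7.88 and 8.1 CPM (DMSO) and 7.6 and 9.73 (Dox) in the GFP line, against 3.05 and 2.37 (DMSO) and 3.57 and 3.35 (Dox) in the SMARCB1 line, a difference of -1.57 ± 0.18 under DMSO and -1.33 ± 0.17 under Dox, while MAFG was higher (0.44 and 0.53) and MAFF was not called. DDI2 was called lower in the SMARCB1 line under DMSO, with means of 46.7 against 54.2 CPM, and under Dox at -0.31 ± 0.081. VCP was also called lower in both, with means of 184 against 230 CPM under DMSO and 202 against 241 under Dox. NPLOC4 was the gene of this list that changed with SMARCB1 induction, at 0.24 ± 0.078 (SE, adjusted p = 0.0425). It had 112 and 123 CPM (DMSO) and 139 and 140.3 (Dox) in the SMARCB1 line, against 152 and 156 (DMSO) and 155 and 155 (Dox) in the GFP line. Between the lines it was called lower in the SMARCB1 line under DMSO and not called under Dox. Both SMARCB1 Dox libraries stayed below every GFP library. The call with induction was lost without either SMARCB1 Dox library and without SMARCB1 DMSO replicate 1 (0.18 to 0.25). With the GC trend removed, together with a replicate block, NPLOC4 stood at 0.17 (adjusted p = 0.0517).

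Of 12 genes of ubiquitin supply and shuttling, SQSTM1, which carries ubiquitinated cargo to autophagy, passed the test with SMARCB1 induction at 0.27 ± 0.080 (SE, adjusted p = 0.0251). Its libraries held 227 and 227 CPM (DMSO) and 273 and 274 (Dox) in the SMARCB1 line, against 301 and 326 (DMSO) and 310.3 and 337 (Dox) in the GFP line, with adjusted p from 0.0689 to 0.0849 when any 1 of the 4 SMARCB1 libraries was left out. With the GC trend removed, together with a replicate block, its fold change was 0.11 (adjusted p = 0.219). The induced level stayed below that of the GFP line, by -0.24 ± 0.080 (SE, adjusted p = 0.0193) under Dox. Under DMSO 2 of the 12 were higher in the SMARCB1 line and 4 lower, against 16.3% and 15.7% of all genes. Under Dox 1 was higher and 5 lower, against 19.6% and 19.2%. The shuttles UBQLN1, UBQLN2 and UBQLN4 were lower in both (-0.43, -0.28 and -0.43 under Dox).

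Of 15 genes of class I antigen presentation and interferon response, which use the peptides that immunoproteasomes cut, 14 were tested. Under DMSO 1 was higher and 2 lower in the SMARCB1 line, against 16.3% and 15.7% of all genes. Under Dox 2 were higher and 2 lower, against 19.6% and 19.2%. The peptide transporter TAP1, the neighbour of PSMB9, had 39.5 and 34.5 CPM (DMSO) and 33.5 and 27.4 (Dox) in the SMARCB1 line, against 51.2 and 51 (DMSO) and 50.4 and 51.5 (Dox) in the GFP line, lower in the SMARCB1 line at -0.47 ± 0.098 (SE, adjusted p = 0.000768) under DMSO and -0.74 ± 0.099 (SE, adjusted p = 2.78e-06) under Dox. B2M, the light chain of class I molecules, was higher instead (0.48 ± 0.10 and 0.38 ± 0.10). NLRC5, an activator of class I genes and of immunosubunits, was the only gene of this list to pass the test with SMARCB1 induction, with 1.61 and 1.49 CPM (DMSO) and 3.96 and 2.78 (Dox) in the SMARCB1 line, against 1.33 and 0.756 (DMSO) and 1.59 and 0.847 (Dox) in the GFP line and 1.12 ± 0.31 (SE, adjusted p = 0.016). Without SMARCB1 Dox replicate 1 it stood at 0.84 (adjusted p = 0.211), and without SMARCB1 DMSO replicate 2 at 1.06 (adjusted p = 0.0678). Its difference between the Dox effects was 0.90 ± 0.47 (SE, adjusted p = 0.363), and under Dox it was higher than in the GFP line by 1.48 ± 0.31. In none of the 4 lists was a gene called with Dox in the GFP line or in the difference of the Dox effects.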

How the data were processed

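The authors aligned reads with STAR to hg38 and counted them with HTSeq over exons in intersection-strict mode on GENCODE v42. Versions and the strand option are not given in the sources used here. The labels and the methods name different library kits, so the chemistry is uncertain. The deposited files hold raw counts per gene for 8 libraries, from which 5 closing entries that name no gene (27.0 to 29.3% of their reads) were left out. Symbols and positions came from GENCODE v44, which matched 62625 of 69215 identifiers, and promoters from RefSeq.

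Counts were filtered (filterByExpr), scaled by TMM and fitted with 4 group means over all 8 libraries in edgeR 4.0.16 (quasi-likelihood, R 4.3.3), with Benjamini-Hochberg adjustment over 15931 genes. Calls are at adjusted p below 0.05. DESeq2 1.42.0, other scalings, no filter, a replicate block, a GC correction, fewer groups and leaving out each library were alternatives. In data simulated on the Dox comparison of the SMARCB1 line, with 200 of 15931 genes changed, 71% of 2-fold and 53% of 1.5-fold changes were recovered, with 12 false calls. Far more genes, 2234 of 15931, were called in the data themselves, so these rates do not carry over directly. They cover all genes tested and were not computed for the members. Replicate libraries differed beyond sampling noise. Level ratios between genes used exon length. RPKM was computed here.

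Members and gene lists were chosen with earlier results of these data known. Values in every library were given for the immunosubunits, members called with SMARCB1 induction, and the 5 highest and 5 lowest called differences between the lines. From the pathway lists, genes called with SMARCB1 induction and the 4 with the largest line differences per list were named. USP14, ECPAS, DDI2 and others beyond these were added after their values were seen. Ribosome profiling libraries were not analysed here.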

Additional observations from a re-analysis of the deposited data

How the results depend on the processing

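No called difference among the members followed through the alternatives changed sign, but values near 0 or not called did. The members' median with SMARCB1 induction (-0.03) was 0.07 with library totals and 0.01 without SMARCB1 DMSO replicate 2. PSMB10 moved from -0.22 to 0.15 with Dox in the GFP line without GFP Dox replicate 2, and from 0.14 to -0.05 between the lines under DMSO without GFP DMSO replicate 2. With SMARCB1 induction, the number of members called lower (1) was 0 with DESeq2, with library totals in place of TMM and with only the groups compared in the fit, and 0 to 1 when a library was left out. The number called higher (0) was 1 with library totals. Between the lines under DMSO, the count called higher (1) was 0 with DESeq2 and library totals, and 0 to 1 when a library was left out. The count called lower (12) was 20 with library totals, and 5 to 10 when a library was left out. Under Dox, the count called higher (2) was 1 with DESeq2, RLE scaling, library totals, no expression filter and only the groups compared, and 0 to 2 when a library was left out, while the count called lower (17) was 8 to 13 when a library was left out. Library totals moved the median of all genes from -0.004 to 0.09 with SMARCB1 induction and from 0.01 to -0.10 between the lines under DMSO. The cause of these shifts was not tested.

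Whether replicate numbers pair the samples was not settled: correlations of same-numbered deviations between groups were weak and all positive, at 0.03 to 0.15. A replicate block called 1 member higher (PSMD9) and 2 lower (PSMA2 and PSMD14) with SMARCB1 induction, 3 higher and 14 lower between the lines under DMSO, and 2 higher and 20 lower under Dox. The GC correction with the replicate block called 2 higher (PSMD9 and PSME4) and 1 lower with SMARCB1 induction, 4 higher and 22 lower under DMSO, and 1 higher and 25 lower under Dox. Members were called in no setting with Dox in the GFP line or in the difference of the Dox effects. With 2 libraries a group, differences of under 1.5-fold were detected in part, and PSMB8, PSMA8 and PSMB11 were too low to compare.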
